A study of Mus musculus with 2 samples.

Results

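The genes described here are 8 transcription factor genes of the developing retina, Pax6, Six3, Six6, Rax, Lhx2, Neurod1, Prox1 and Onecut1. They were taken by name from the array's own gene annotation and are carried by 12 of its 39429 non-control probes, among 29607 gene names in all. The study grew 661W cells for 3 days in DMEM/F12 medium without choline or with choline, the precursor of phosphatidylcholine and of acetylcholine. A concentration of 8.98 g/L is given for the choline-sufficient medium, a figure that could not be checked. Total RNA of each condition was labelled with Cy3 and hybridised to 1 Agilent single-colour array, so there was 1 choline-deficient and 1 choline-sufficient sample, both from the same line and in medium with fetal bovine serum. 661W is an immortal mouse line with cone photoreceptor features that came from a retinal tumour, in which a viral T antigen was driven by the promoter of the interphotoreceptor retinoid-binding protein gene. The design text speaks of RNA pooled from 4 dishes and does not say whether that was per condition. Both arrays sat on 1 slide. With a single array for each medium there is no measure of the spread between cultures, so the differences below carry no p-value.

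These factors act in sequence in the vertebrate eye. Pax6, Six3, Six6, Rax and Lhx2 are homeodomain factors that specify the eye field and keep retinal progenitor cells dividing. Neurod1, a basic helix-loop-helix factor, and Prox1 and Onecut1, both homeodomain factors, act later, as progenitors leave the cell cycle and become photoreceptors, amacrine cells or horizontal cells. Several persist in the adult retina, Pax6 in amacrine and ganglion cells, Lhx2 in Müller glia, Prox1 in horizontal cells and Neurod1 in photoreceptors.

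The array read each factor through 60-base probes, and what was found depends on which probe carried the gene. Of the 12 probes, 4 that lie in protein-coding sequence are shown, the first pair for the factor with more than 1 measured probe and the others for factors with no measured probe. The first Pax6 probe runs to the end of the reading frame, and the capitals mark its stop codon. It lies on chromosome 2 from 105536454 to 105536513 (mm9, forward strand). The second Pax6 probe is listed from 105524098 to 105524949 on the same strand, a span 792 bases longer than the probe, so it joins separate exons. Its sequence runs into the alternatively spliced exon that adds a short insert to the paired domain, so it reads the Pax6 isoforms that carry this insert, while the stop-codon probe lies in the shared end of the reading frame. The Neurod1 probe lies on chromosome 2 from 79294309 to 79294368 (reverse strand) and the Onecut1 probe on chromosome 9 from 74710921 to 74710980 (forward strand).
Pax6, stop-codon probe: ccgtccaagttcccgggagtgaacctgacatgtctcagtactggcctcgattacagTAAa
Pax6, exon-joining probe: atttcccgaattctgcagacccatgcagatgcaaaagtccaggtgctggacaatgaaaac
Neurod1, coding probe: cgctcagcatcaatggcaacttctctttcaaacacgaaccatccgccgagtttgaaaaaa
Onecut1, coding probe: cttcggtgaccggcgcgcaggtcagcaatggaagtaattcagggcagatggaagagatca

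Of the 8 factors, Pax6, Six3, Rax and Lhx2 were measured, meaning that at least 1 probe was well above background by the scanner software's call on both arrays. Six6, Neurod1, Prox1 and Onecut1 were well above background on neither array. That is 4 of 8 in each class, against 66.9% of all 29607 genes on both arrays and 28.5% on neither. The signals are intensities after the software's background subtraction and detrending within each array. Spots well above background made up 70.7% of the choline-deficient and 68.5% of the choline-sufficient array, with 0 saturated. For comparison between arrays each signal was put on the log2 scale relative to its array's 75th percentile, 1609.4 on the choline-deficient and 1279.6 on the choline-sufficient array. Each difference is the scaled log2 value without choline minus that with choline. The error after each ± is the software's estimate for the array measurement and leaves out the variation between cultures. Intensities of different probes cannot be ranked against each other, so the levels of the factors are compared only between the arrays, probe by probe.

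**Figure D1:**
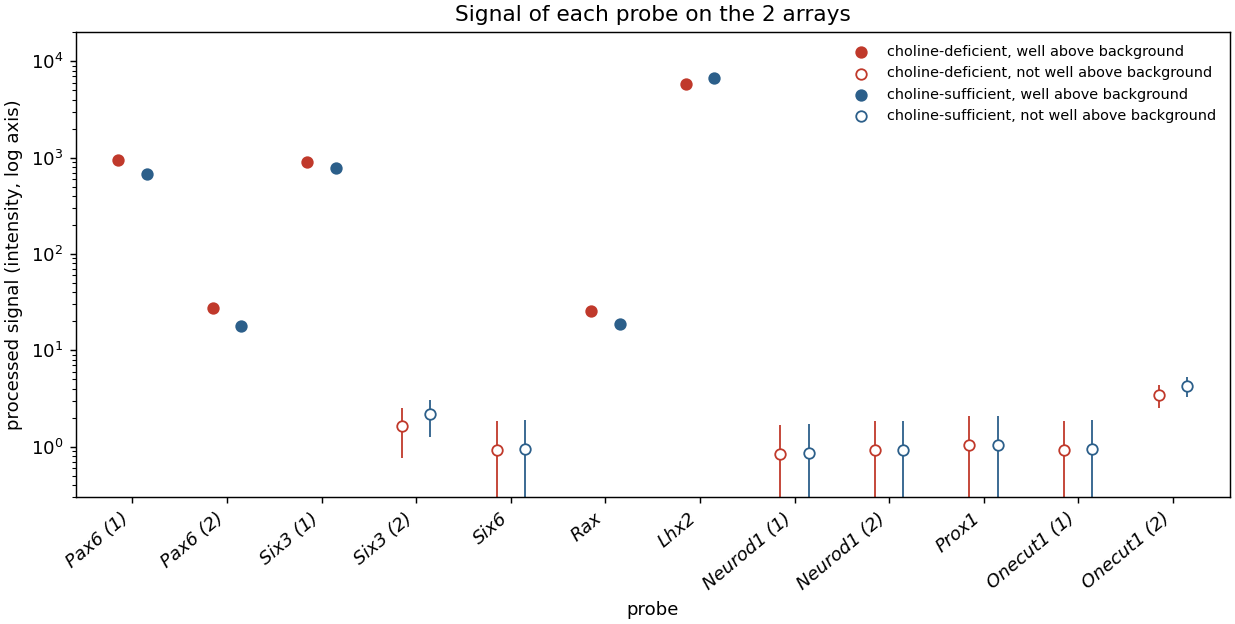
Processed signal (intensity, log axis) of each of the 12 probes on the choline-deficient array (red) and the choline-sufficient array (blue), with the software's error as bars. Filled points are well above background and open points are not. Pax6 (1), Pax6 (2), Six3 (1), Rax and Lhx2 are filled on both arrays, where the bars are shorter than the points; the lower bars of the dimmest probes run off the axis.

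Pax6, the paired-box factor required for eye formation, was measured by both of its probes (NM_013627). The stop-codon probe had a signal of 938 ± 93.8 on the choline-deficient array, against 671 ± 67.1 on the choline-sufficient array. After scaling its log2 difference was 0.15 ± 0.20, a ratio of 1.11. The exon-joining probe had 27.2 ± 2.96 on the choline-deficient array, against 17.9 ± 2.11 on the choline-sufficient array, and a log2 difference of 0.27 ± 0.23. The stop-codon probe lay within its error of 0 and the exon-joining probe just outside it, and the exon-joining probe was at -0.18 after another background correction (normexp). The mean over the probes, the value used for the gene, was 0.21 ± 0.22, a 1.16-fold ratio, and 70.8% of measured genes had a lower difference. The gap between the Pax6 probes was smaller than the median gap of 0.23 among the 5150 genes with more than 1 measured probe.

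Six3, a sine oculis homeobox factor that represses Wnt signalling in the forming forebrain and eye, was measured by 1 of its 2 probes. That probe (NM_011381, chromosome 17, 86023349 to 86023408 on mm9) had a signal of 895 ± 89.6 on the choline-deficient array, against 779 ± 77.9 on the choline-sufficient array. After scaling the log2 difference was -0.13 ± 0.20, within the error. The second Six3 probe (BC094426, 86030070 to 86030129) had 1.65 ± 0.88 on the choline-deficient and 2.16 ± 0.90 on the choline-sufficient array. It passed the software's test against background on both arrays but not its stricter call, so it gave no value. Six6, the closest relative of Six3 and a factor that keeps retinal progenitors in cycle, had a signal of 0.926 ± 0.923 on the choline-deficient array and 0.948 ± 0.945 on the choline-sufficient array. Its raw spot mean was 26.1 beside a local background of 25.0 on the choline-deficient array, and 25.7 beside 24.0 on the choline-sufficient array. The processed Six6 values are the software's substitutes for a signal inside the background noise.

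Rax, the retina and anterior neural fold homeobox factor that marks the earliest eye field, was dim but measured. Its only probe (NM_013833) had a signal of 25.4 ± 2.69 on the choline-deficient array, against 18.5 ± 2.06 on the choline-sufficient array. The log2 difference after scaling was 0.12 ± 0.22, so the arrays did not differ beyond the measurement error. Among probes printed as 8 or more spots above background, the 29 with a mean signal between 10 and 50 had spot-to-spot differences with a median SD of 0.16, so a dim single spot such as that of Rax or of the exon-joining Pax6 probe is the less precise kind.

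Lhx2, the LIM-homeodomain factor of the optic cup, stood farthest from 0 among the measured factors. Its probe (NM_010710, chromosome 2, 38224933 to 38224992 on mm9) had a signal of 5838 ± 584 on the choline-deficient array, against 6628 ± 663 on the choline-sufficient array. The raw spot means were 4867 on the choline-deficient and 6086 on the choline-sufficient array. After scaling, Lhx2 was 1.43-fold lower without choline, a log2 difference of -0.51 ± 0.20. This was more than 2 errors from 0, though less than 2 with cyclic loess (-0.35) and spike-in scaling (-0.24), and below the 1.5-fold size used for counting, and 17.8% of measured genes had a lower difference. Between replicate spots of the 81 probes with mean signals from 2000 to 10000, the median SD was 0.04 and the highest 0.11. The Lhx2 difference exceeded this spot noise, which leaves out what all spots of an array share, such as the scaling. The spread of Lhx2 between cultures is unknown. In RNA from a whole culture, fewer cells with the transcript and less transcript per cell cannot be told apart.

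The later-acting factors Neurod1, Prox1 and Onecut1 met the call on neither array. Neurod1, which promotes photoreceptor and amacrine fates, had signals of 0.928 ± 0.924 on the choline-deficient array and 0.916 ± 0.913 on the choline-sufficient array at its coding probe. Its second probe (chromosome 2, 79293621 to 79293680) had 0.844 ± 0.840 on the choline-deficient array and 0.865 ± 0.862 on the choline-sufficient array. Both probes sat inside the background noise, where the software substitutes a value. Prox1, which directs progenitors to the horizontal cell fate, had 1.05 ± 1.04 on the choline-deficient and 1.03 ± 1.03 on the choline-sufficient array at its only probe (chromosome 1, 191945785 to 191945844). Onecut1, which acts in horizontal cell genesis, had 0.924 ± 0.920 on the choline-deficient and 0.949 ± 0.945 on the choline-sufficient array at its coding probe. In all, 5 of the 12 probes carried substituted values on both arrays. The second Onecut1 probe (chromosome 9, 74737402 to 74737461) was not among those 5. It was the brightest probe of Neurod1, Prox1 and Onecut1, with 3.46 ± 0.93 on the choline-deficient and 4.28 ± 0.97 on the choline-sufficient array. The lowest signals called well above background were 4.16 on the choline-deficient and 4.26 on the choline-sufficient array, and the call uses the noise at each spot, so this Onecut1 signal was just outside it. It did pass the software's weaker test against background on both arrays. No fold is given for these factors.

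None of the 4 measured factors was at least 1.5-fold higher and none at least 1.5-fold lower without choline. Among the 19816 measured genes of the array, 14.8% were that much higher and 14.1% that much lower, and at 2-fold the shares were 7.67% higher and 3.88% lower. With only 4 genes, counts of 0 do not stand apart from these shares. The median of the measured factors was -0.003, beside -0.10 for all measured genes.

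Pax6, Rax and Six3 each had the other sign under 1 of the 9 other treatments of the data, and Lhx2 under none of them. Lhx2 stayed lower throughout, between -0.65 after normexp background correction and -0.24 with spike-in scaling. It passed the 1.5-fold size with median scaling, at -0.63, and after normexp. Not all 9 treatments could move it. The choice of probes or filter leaves its single bright probe at -0.51, and the deposited table nearly repeats the main scaling. Several of the 9 likewise could not move Rax or Six3. Pax6 was at -0.01 after normexp and between 0.09 and 0.48 otherwise. Rax was at -0.17 after normexp, between 0.004 and 0.39 in the others that kept it, and not among the brighter probes. Six3 was at 0.14 with spike-in scaling and between -0.43 and -0.08 otherwise.

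**Figure D2:**
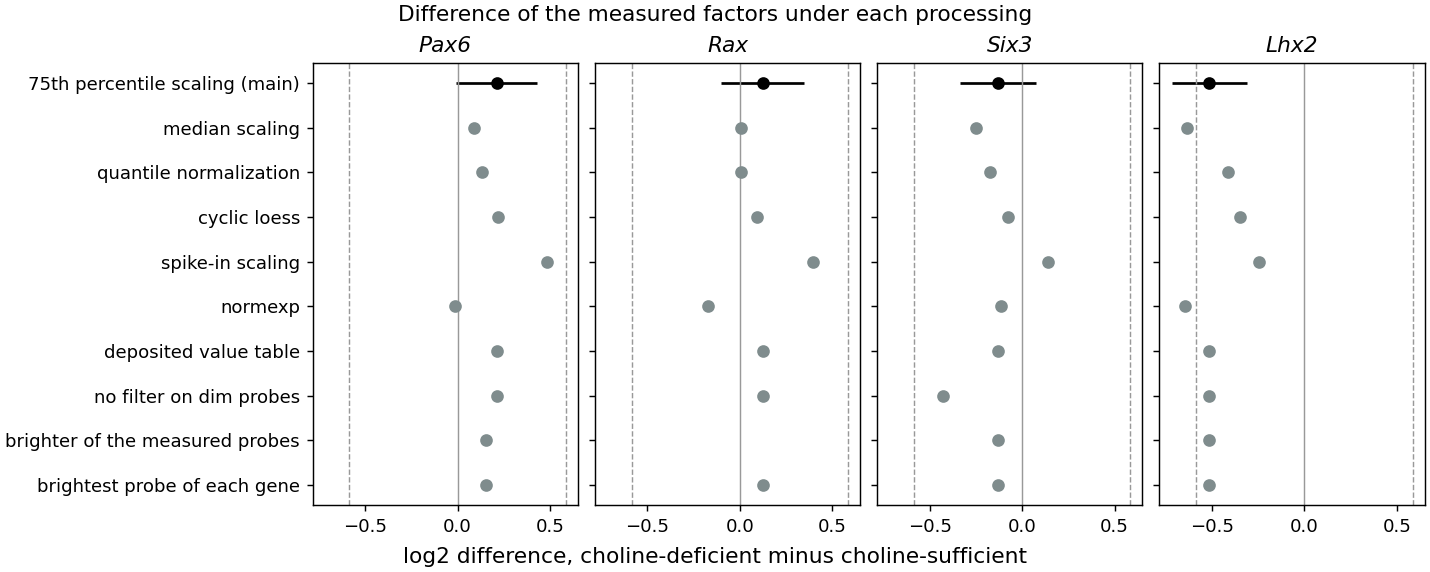
Log2 difference of Pax6, Rax, Six3 and Lhx2, choline-deficient minus choline-sufficient, under each processing of the data. Black points with bars are the values given in the text with the software's error, grey points are alternatives, the solid line is 0 and the dashed lines mark 1.5-fold. Lhx2 lies left of 0 in every row, while Pax6, Rax and Six3 each cross it once; Rax has no value with the brighter probes.

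Among relatives of these factors, differences over 1.5-fold were found in both directions. Of 22 listed paralogs 15 were measured, 4 of them at least 1.5-fold higher and 3 lower without choline. Among all measured genes the shares were 14.8% higher and 14.1% lower. The paralogs had a median of -0.07 that was 0.20 with spike-in scaling and 0.42 with the brighter probes. Beside Six3 and Six6, Six4 was 1.84-fold higher, Six2 was at -0.07 ± 0.21 and Six5 at -0.25 ± 0.20; Six2, Six4 and Six5 were chosen after their values were seen.

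Beside the LIM factor Lhx2, Lhx1, which marks horizontal cells, was 2.23-fold lower, with its 2 probes at -1.60 and -0.71. Beside the undetected Neurod1, its relative Neurod2 was 2.73-fold lower (-1.45 ± 0.36) on dim signals of 4.46 on the choline-deficient and 9.67 on the choline-sufficient array, and its difference was as small as -0.39 over the scalings and background corrections. Beside the undetected Prox1, Prox2 was 2.75-fold higher (1.46 ± 0.23), with signals of 41.5 on the choline-deficient and 12.0 on the choline-sufficient array, and its difference was as small as 0.24 over the same alternatives. In the Onecut family Onecut2, also a horizontal and ganglion cell factor, was measured at 0.38 ± 0.20, with signals of 756 on the choline-deficient and 462 on the choline-sufficient array. Onecut3 was well above background only on the choline-sufficient array and at least 2.62-fold lower without choline. That bound sets its signal against the lowest signal called well above background on the choline-deficient array.

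**Figure D3:**
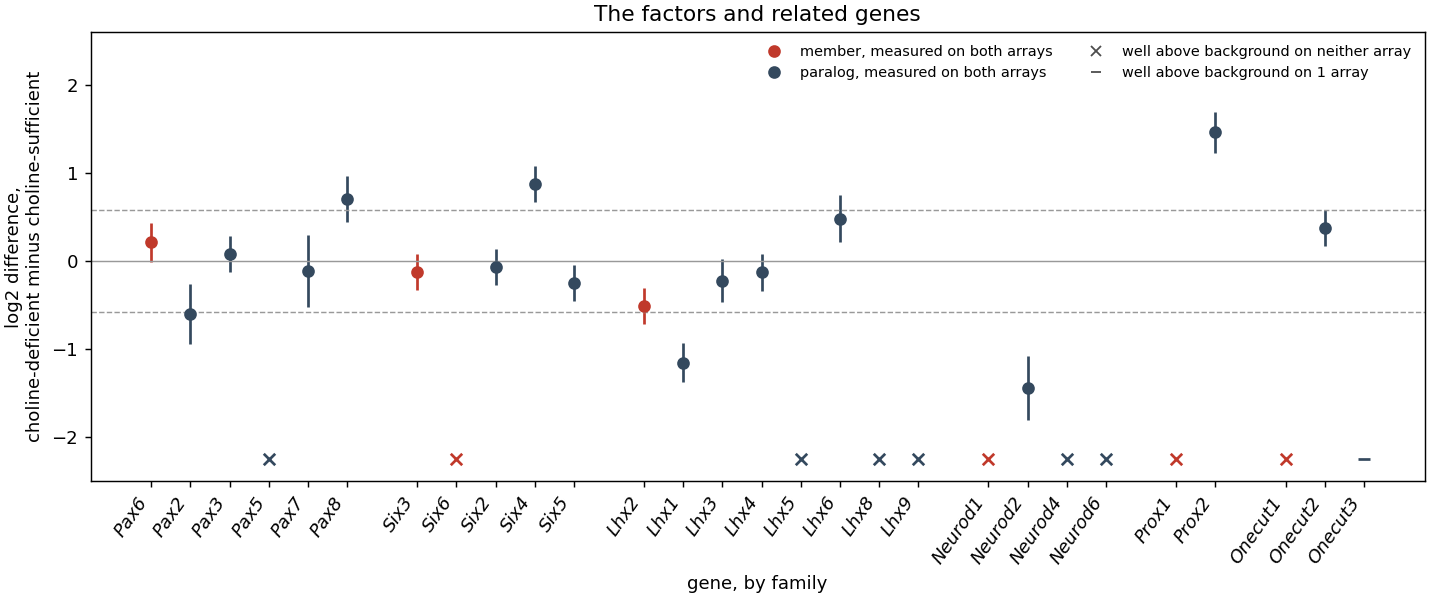
Log2 difference, choline-deficient minus choline-sufficient, of 7 of the 8 factors (red; Rax, with no listed paralog, is left out) and related genes from the paralog list (dark), by family, with the software's error as bars and dashed lines at 1.5-fold. Crosses at the bottom mark genes well above background on neither array and the dash a gene above it on 1 array. Pax6, Six3 and Lhx2 lie inside the dashed lines, and Prox2, Lhx1 and Neurod2 lie farthest outside.

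In the wider list of 24 eye field and progenitor factors, which holds 5 of the 8 genes, 18 were measured. Of these 6 were at least 1.5-fold higher and 2 lower, where the shares of all measured genes were 14.8% and 14.1%. The median of the list was 0.15. The largest differences were in genes outside the 8. Ccnd1, the cyclin that drives retinal progenitors through the cell cycle, was 3.59-fold higher, the Notch effector Hes1 2.64-fold higher and the orphan receptor gene Nr2f2 1.88-fold higher, while Id3, an inhibitor of basic helix-loop-helix factors, was 2.23-fold lower. Sox2, a progenitor and Müller glia factor, was on neither array. Of 18 proneural basic helix-loop-helix factors and their dimer partners, the class of Neurod1, 6 were measured, 10 were on neither array and the median was -0.15, or 0.12 with spike-in scaling and 0.20 with the brighter probes. Among the measured ones Neurod2 alone passed 1.5-fold.

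Of 26 factors of horizontal, amacrine and bipolar cells, the class of Prox1 and Onecut1, 16 were measured, 4 of them higher and 3 lower, with a median of 0.25 that was -0.14 without the filter on dim probes. Ebf1 was 1.88-fold and Nfia 1.79-fold higher, and the dim Ebf2 was 2.84-fold lower, with differences as small as 0.12 for Nfia and -0.39 for Ebf2 over the scalings and background corrections. Of 19 cofactors of the homeodomain and LIM proteins 14 were measured, 3 of them higher and 0 lower, with a median of -0.14 that was 0.13 with spike-in scaling. Tle2, of the Groucho corepressors that Six3 can recruit, was 3.04-fold higher with its 2 probes at 0.54 and 2.67, and Tle6 was 1.81-fold higher. Among the Eya transcriptional coactivators, Eya4 was 1.87-fold higher and Eya1 was at -0.58 ± 0.20. Dach2 was well above background only on the choline-sufficient array and at least 7.18-fold lower without choline. That bound rests only on those of its 3 probes that were called on the choline-sufficient array. These medians stand beside -0.10 for all measured genes, of which 14.8% were at least 1.5-fold higher and 14.1% lower.

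**Figure D4:**
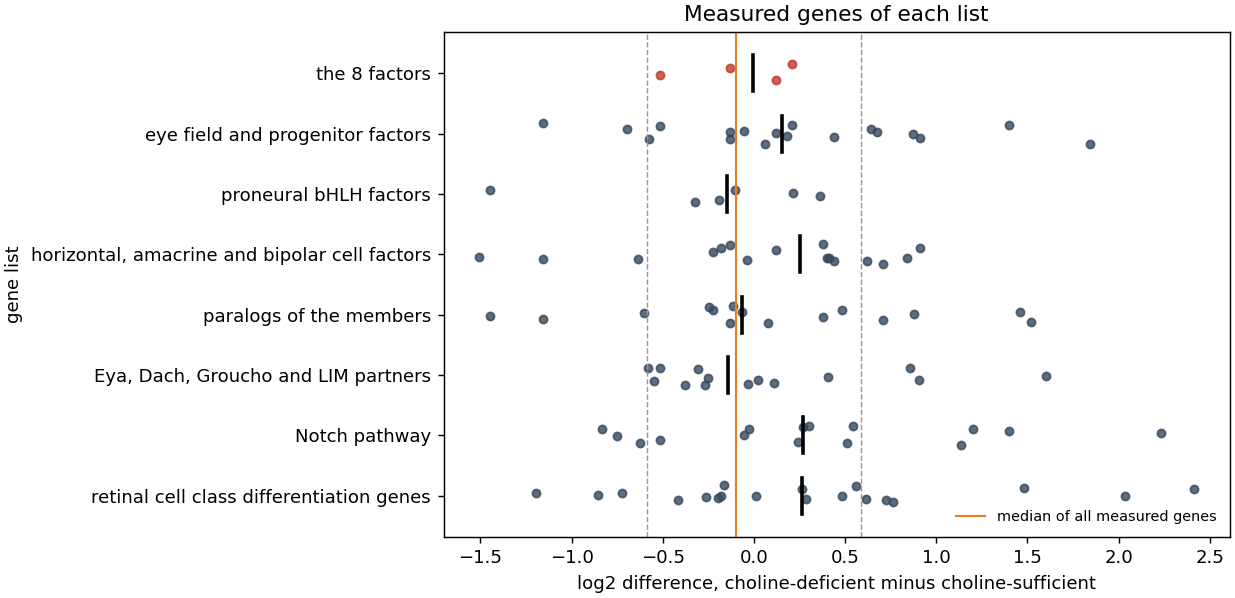
Log2 difference, choline-deficient minus choline-sufficient, of every measured gene in each list (points, spread vertically only for visibility), with the list median as a black bar, the median of all measured genes as an orange line and dashed lines at 1.5-fold. The 4 measured factors at the top lie between -0.51 and 0.21, and the Notch and differentiation lists reach past 2.

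The retinal character of the line was checked by markers. Their summed levels add different probes, so bright probes weigh most, and the counts at 1.5-fold are given beside them. Among all measured genes 14.8% were that much higher and 14.1% that much lower. Of 12 cone markers 7 were measured, 3 of them higher and 0 lower, with a summed level of 0.45 times the array's 75th percentile without choline and 0.30 with it. The cone median of 0.56 ran from -0.12 to 0.83 over the alternatives. Of the higher genes, Gngt2 fell to 0.50, Thrb to 0.15 and Pde6h to -0.12 over the scalings and background corrections. Pde6c was called with choline alone, at least 2.98-fold lower without it. Cnga3 and Guca1a were called without choline alone, at least 1.22-fold and 1.06-fold higher. The cone genes Gnat2 and Opn1mw were measured at 0.56 ± 0.20 and 0.30 ± 0.24. The blue cone opsin gene Opn1sw and the photoreceptor factors Crx and Nrl were well above background on neither array. Among 6 general photoreceptor markers 2 were measured, Rbp3 at -0.37 ± 0.20 and Rom1 at -0.28 ± 0.20. Rbp3 encodes the interphotoreceptor retinoid-binding protein. The sums of both were 2.95 without choline and 3.68 with it, and another 2 of the 6 were called without choline alone. Of 8 retinal progenitor markers, among them 5 of the 8 factors, 5 were measured, 1 higher and 0 lower. Their median was 0.12, from -0.12 to 0.39 over the alternatives, and their summed levels were 7.43 without choline and 6.76 with it. The 4 measured factors alone summed to 4.30 without choline and 5.89 with it, most of both from the Lhx2 probe. The fifth marker was Ccnd1, at 1.84. Of 6 horizontal cell markers 3 were measured, 0 higher and 2 lower (Lhx1 and Calb1, at -1.16 and -0.72). The median of -0.72 ran from -0.84 to 0.38 over the alternatives. Calb1 rests on 1 of its 2 probes, with signals of 8.1 without choline and 10.6 with it. Its difference was as small as -0.42 over the scalings and background corrections. The sums of these markers were 0.49 without choline and 0.41 with it through the brighter Onecut2 probe. Of 10 Müller glia markers 7 were measured, 4 higher and 1 lower, with a median of 1.07 and sums of 44.7 without choline and 18.2 with it. Vim and Dkk3 made up most of these sums, Apoe was at -1.72 and Aqp4 at -0.32, and Kcnj10 and Sox2 were on neither array. Of 7 fibroblast markers 6 were measured, 5 higher and 0 lower, with a median of 2.40 and sums of 77.1 without choline and 9.05 with it, most of it from Col1a2, and Lum was on neither array. Rod markers (3 of 8 measured) had 2 higher, 0 lower and a median of 0.77. Ganglion cell markers (5 of 10) had 1 higher, 2 lower and a median of -0.47. Bipolar cell markers (5 of 7) had 2 higher, 0 lower and a median of 0.48. Amacrine cell markers (5 of 9) had 1 higher, 0 lower and a median of 0.29. Pigment epithelium markers (3 of 8) had 0 higher, 0 lower and a median of 0.06. Over the alternatives the rod, amacrine and pigment epithelium medians took both signs. The part of these other markers in the difference of Lhx2 was not tested.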

How the data were processed

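The submitters' processing notes name Agilent Feature Extraction 12.1.1.1 as the software. Per the file headers, the deposited intensity values are background-subtracted and detrended within each array, with no normalization between arrays, and probe positions are on mm9. In the deposited value table, each value is a ratio of the processed signal to 1 fixed number per array (1609.49 and 1279.72 for the choline-deficient and choline-sufficient arrays). It is linear, uncentred and runs the same way as the scanner values, with medians of 0.0358 (choline-deficient) and 0.0337 (choline-sufficient). No source used here describes that step.

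Processed signals were taken to log2 and the 75th percentile of the array's 43020 non-control spots was subtracted. Outlier spots (92 choline-deficient and 86 choline-sufficient) were left out and spots of a probe averaged. A probe was measured when well above background and unsaturated on both arrays (26461 of 39426), and a gene's value and error are means over its measured probes. Of the 12 member probes, 10 had an accession in RefSeq (GRCm38.p6), all with the same symbol. Coding positions of the printed probes were read from their sequences, without an mm9 annotation. Analysis used Python 3.11.15, numpy 2.4.6, pandas 2.3.3, and limma 3.58.1 in R 4.3.3 for normexp (offset 50), quantile and cyclic loess normalization, and was tested on simulated data. Other alternatives were scaling to the median or to 5 bright spike-in probes, the deposited table, no filter, the brighter probes and the brightest probe. Members and lists were chosen with earlier results of these data known. From each list up to 4 genes with the largest differences over 2 errors are named, and genes on 1 or neither array where stated; some genes are not reported here. Those named beyond this rule, the marker genes included, were chosen after their values were seen. The number of arrays limits the precision.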

Additional observations from a re-analysis of the deposited data

How the results depend on the processing

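The count of measured factors at least 1.5-fold higher was 0 throughout. The count lower was 0, but 1 (Lhx2) with median scaling, after normexp or with a size over 2 errors as the threshold. Of 19816 genes 2932 were higher and 2801 lower. These counts were 4790 and 1183 with spike-in scaling, 1314 and 1675 of 10782 genes with the brighter probes, 1669 higher after normexp and 4636 lower of 29607 genes with no filter. Higher genes made up 51.1% of those counted, 37.1% with median scaling and 80.2% with spike-in scaling, which moved the median of all genes by -0.12 and 0.27. Of the member, probe and list-median values under alternatives, 101 moved by less than the measurement error (0.2 for lists) and 27 by more. Without the filter Six3 was -0.43, since its probe that is not well above background then counts. Other causes were not tested. No paired analysis was possible because each group holds 1 array. Below background, folds cannot be given.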

Other observations

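Pax6 and Six3 each overlap a long noncoding gene, by name of the opposite strand, in RefSeq (GRCm38.p6), and both of these differed more than the factor itself. These neighbours were chosen after their values were seen. Pax6os1 had a signal of 357.6 on the choline-deficient array, against 98.3 on the choline-sufficient array, and was 2.89-fold higher (1.53 ± 0.20, and 1.18 to 1.80 over the scalings and background corrections). Pax6 itself was at 0.21 ± 0.22. Six3os1 ran the other way, with 33.1 on the choline-deficient and 61.2 on the choline-sufficient array, 2.33-fold lower (-1.22 ± 0.21, and -1.34 to -0.73 over the same alternatives), where Six3 was at -0.13 ± 0.20. Elp4, the protein-coding gene that overlaps the other end of Pax6, was at 0.05 ± 0.21, with its 3 probes between -0.25 and 0.53. Each noncoding gene rests on 1 measured probe.

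Of 20 genes of the Notch pathway, which keeps retinal progenitors undifferentiated, 15 were measured, 4 of them at least 1.5-fold higher and 3 lower. Among all measured genes 14.8% were that much higher and 14.1% that much lower, with a median of -0.10. The Notch median was 0.27, from 0.13 to 0.54 over the alternatives. The receptor gene Notch3 was 4.70-fold higher, the ligand gene Jag1 2.30-fold and Lfng, which encodes a glycosyltransferase that modifies Notch receptors, 2.20-fold. Of 31 differentiation genes of retinal cell classes 19 were measured, 6 higher and 3 lower, with a median of 0.26 that was -0.15 without the filter on dim probes and -0.06 after normexp. The kinase gene Prkca was 5.33-fold higher and the microtubule-associated gene Map2 4.11-fold. The dim Thy1 was at 1.48 ± 0.35 and as small as 0.06 over the scalings and background corrections, and Elavl3 was 2.29-fold lower.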
